A study of Mus musculus with 6 samples.

Results

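The genes described here move fatty acids into cells, carry them inside, hold their coenzyme A esters, or split those esters again. They were the 9 rows of the count table, of 22386 in all, with the symbols Slc27a1, Slc27a3, Slc27a4, Fabp4, Fabp5, Dbi, Acbd3, Acot7 and Acot9. They were chosen by name for their roles, with earlier results of these data known. Libraries of ribosomal-RNA-depleted RNA came from MC38, a mouse colorectal cancer line grown in serum-containing medium, 3 with a hairpin against Acsl4 (shACSL4, given as a knockdown) and 3 with a control hairpin (shControl, given as wild type). The series text speaks of knockout cells, and the hairpin sequences, and whether the lines were pools or single clones, were not stated. No label says that replicates were grown as separate cultures, so p-values measure the spread between these libraries, which may be technical.

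Long-chain fatty acids enter many metabolic routes only after they are joined to coenzyme A. Acsl4 encodes an enzyme that does this, with a preference for arachidonate and other polyunsaturated chains. The Slc27 proteins promote fatty acid uptake and most of them can also form acyl-CoA. Fatty acid-binding proteins carry the free acids through the cytosol, acyl-CoA-binding proteins hold the activated esters, and acyl-CoA thioesterases (Acot) return them to free acid and coenzyme A, the reverse of the Acsl4 reaction.

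Libraries held 41134232 to 47127672 counts in shACSL4 and 40911698 to 42058293 counts in shControl. Levels are CPM, counts scaled to library size with edgeR's TMM factors, fold changes are shACSL4 over shControl, and a gene counts as changed at an adjusted p under 0.05 over all 14289 tested genes. Acsl4 itself was at 132, 128 and 127 CPM in shACSL4 and at 191, 194 and 204 CPM in shControl, a fold of 0.656 (adjusted p = 3.84e-06), so transcripts of the targeted gene remained. Epithelial markers were scarce: of 10 listed colorectal epithelium markers 8 were analysed, and together they reached 2.59 to 3.79 CPM in shACSL4 and 1.71 to 2.16 CPM in shControl. Cdh1 had 2, 2 and 0 counts in shACSL4 and 4, 0 and 0 in shControl. Krt20, with 89, 60 and 72 counts in shACSL4 and 46, 34 and 37 in shControl, rose 1.79-fold (adjusted p = 0.0361). Krt8, the other tested marker of this list, did not pass (adjusted p = 0.701). Cdh17, too scarce to test, had 10, 10 and 37 counts in shACSL4 and 4, 5 and 6 in shControl. The 6 mesenchymal markers summed to 3074 to 3080 CPM in shACSL4 and 3853 to 4054 CPM in shControl, mostly from Vim, Fn1 and Pdgfra. Of these Vim fell to 0.699 of its control level while Pdgfra rose 2.15-fold (adjusted p = 1.58e-05 and 4.85e-08). Fn1 fell to 0.824 and Pdgfrb rose 1.95-fold (adjusted p = 0.0253 and 0.00559). Col1a1 and Col1a2 were scarce, at means of 0.250 and 0.459 CPM in shACSL4 and 0.256 and 0.250 CPM in shControl, and did not pass.

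Several members have close relatives in the genome, so coding sequences were compared first. The stretches below show how well reads can tell relatives apart. They are the 60 aligned coding bases most alike in each pair, from GENCODE M21 transcripts on GRCm38, written 5′ to 3′ along the transcript. Capitals mark bases that differ within the pair.
Fabp4: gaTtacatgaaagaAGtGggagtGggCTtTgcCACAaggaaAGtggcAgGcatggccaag
Fabp5: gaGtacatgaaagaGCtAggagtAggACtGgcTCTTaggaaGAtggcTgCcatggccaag
Slc27a4: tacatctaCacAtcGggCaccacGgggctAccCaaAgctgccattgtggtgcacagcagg
Slc27a1: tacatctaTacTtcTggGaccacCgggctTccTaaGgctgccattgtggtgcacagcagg
Acot9: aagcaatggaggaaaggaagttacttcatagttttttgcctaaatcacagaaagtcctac
Acot10: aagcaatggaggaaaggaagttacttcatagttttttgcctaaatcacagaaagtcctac
The Fabp4 stretch lies at chr3:10206082-10208457 (minus strand) and the Fabp5 stretch at chr3:10012700-10015011 (plus strand), each interrupted by an intron. They differ at 16 of 60 bases, and the coding sequences are 66.1% identical with no identical run over 12 bases. The Slc27 stretches, at chr2:29809673-29809836 and chr8:71580156-71580610 (both plus strand), encode the AMP-binding signature that Slc27 proteins share with acyl-CoA synthetases, and differ at 8 of 60 bases. Slc27a4 and Slc27a1 are 67.3% identical over their coding sequences, with no identical run over 26 bases. Acot9 (chrX:155272983-155273042, plus strand) and Acot10 (chr15:20666422-20666481, minus strand) are identical over this stretch, with 0 of 60 bases differing, and 97.2% identical over 1317 coding bases.

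These sequences bear on how far each count belongs to its gene. Of all 50-base windows in the longest coding transcript, 0 were shared with another gene's transcripts for Slc27a3, Slc27a4, Fabp4, Acbd3 and Acot7. Slc27a1 shared 1.75% of windows, with transcripts of 176 genes that together held 2190268 counts over all 6 libraries, against 34939 for Slc27a1. Dbi shared 2.69%. Fabp5 shared 21.1% of windows with 5 annotated copies, which were not analysed here. Acot9 shared 20.2%, chiefly with Acot10, which had 5, 8 and 1 counts in shACSL4 and 6, 8 and 1 counts in shControl and so held few reads beside the 4723 or more of Acot9 in every library. No source used here says how the authors counted reads that fit several genes, which leaves the Acot9, Fabp5, Slc27a1 and Dbi counts uncertain to that extent. Bases of a gene outside its longest coding transcript were not searched. For Fabp4 896 bases were searched, against a gene length of 4489 bases behind the authors' values. For Acbd3 3471 bases were searched, against 6780.

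Of the 9 genes, all passed the expression filter, 2 rose, 1 fell and 6 did not pass the test. The transporter gene Slc27a4 rose 1.39-fold and the fatty acid-binding gene Fabp4 rose 1.44-fold, while the Golgi acyl-CoA-binding gene Acbd3 fell to 0.797 of its control level. Slc27a1, Fabp5 and Dbi, which belong to the same families, did not pass the test. Across all tested genes 29.1% changed, 15.4% higher and 13.6% lower, so 3 changed genes of 9 is a share close to the background. The groups did not overlap for the same 3 genes, 2 higher and 1 lower, against 42.8% of all tested genes (22.0% higher and 20.8% lower). The median log2 fold change was 0.031 over the 9 genes and -0.0052 over all tested genes, and the median absolute change was 0.17 against 0.20. Of all tested genes, 20.1% had a larger absolute change than Slc27a4, 17.8% than Fabp4 and 31.1% than Acbd3.

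**Figure D1:**
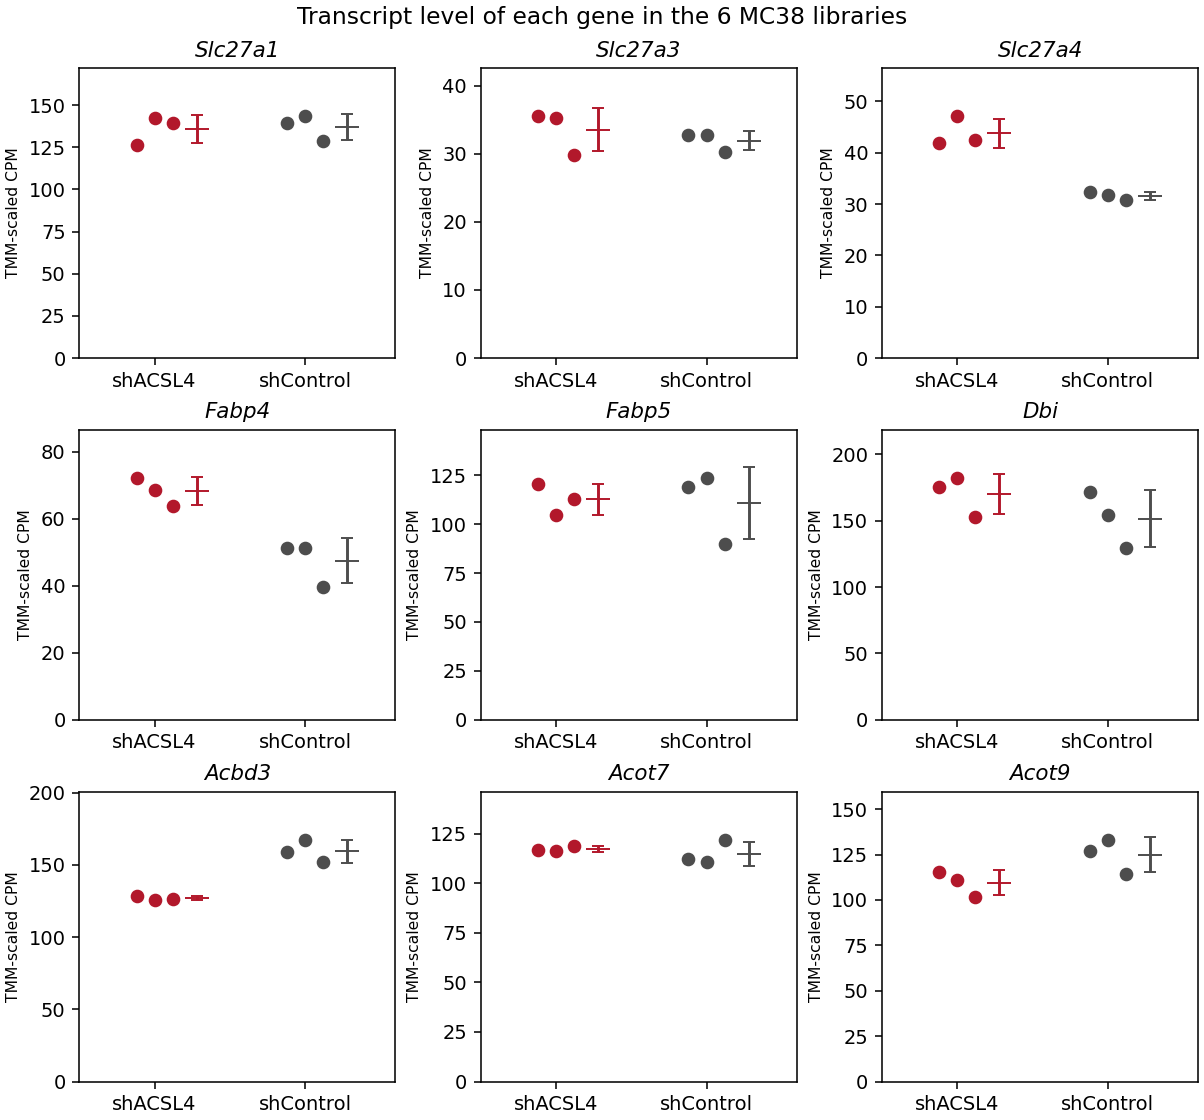
Level of each gene in TMM-scaled CPM, with 1 point per library, and the mean and SD of 3 libraries beside them. The shACSL4 and shControl points do not overlap for Slc27a4, Fabp4 and Acbd3 and overlap for the other 6 genes.

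Among the transporters, Slc27a4 encodes a transporter with acyl-CoA synthetase activity on long and very long chains (ENSMUSG00000059316, GRCm39 chromosome 2, 29692646 to 29707534). Slc27a4 was at 42.0, 47.1 and 42.4 CPM in shACSL4, against 32.3, 31.7 and 30.8 CPM in shControl. Every shACSL4 library lay above every control, and the controls were tightly grouped. The means were 43.8 ± 2.82 CPM in shACSL4 and 31.6 ± 0.727 CPM in shControl (SD, n = 3 each), a log2 fold change of 0.47 (SE 0.0686, adjusted p = 2.61e-04, 95% interval of the fold 1.25 to 1.54). Leaving out any single library kept it between 0.42 and 0.50.

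Slc27a1 encodes an insulin-responsive transporter best known from muscle and fat (chromosome 8, 72021526 to 72039946). It stood at 126, 142 and 139 CPM in shACSL4 and at 139, 143 and 129 CPM in shControl. The groups overlapped, with shACSL4 1 the lowest library and shControl 2 the highest, and the log2 fold change was -0.012 (SE 0.0622, adjusted p = 0.904). The 95% interval of the fold, 0.903 to 1.09, ends below the 1.39-fold of Slc27a4. Slc27a3 (chromosome 3, 90292546 to 90297245), whose protein has acyl-CoA synthetase activity, was at 35.5, 35.3 and 29.9 CPM in shACSL4 and at 32.7, 32.7 and 30.3 CPM in shControl. A single shACSL4 library lay below all controls and the other 2 above them, and the fold was 1.05 (95% interval 0.930 to 1.19, adjusted p = 0.546). Slc27a6, of the same family, had too few counts to test, with 18, 10 and 9 counts in shACSL4 and 12, 2 and 4 in shControl. Over the 3 tested genes of the family the median log2 fold change was 0.072.

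The fatty acid-binding genes Fabp4 and Fabp5 lie near each other on chromosome 3 in a cluster of such genes. Fabp4 (10269148 to 10273636), the adipocyte form, which is also made by macrophages and endothelium, was at 72.1, 68.6 and 63.9 CPM in shACSL4 and at 51.2, 51.4 and 39.6 CPM in shControl. All shACSL4 libraries lay above all controls, and shControl 3 was the lowest of the 6. The means were 68.2 ± 4.10 CPM in shACSL4 and 47.4 ± 6.71 CPM in shControl, a log2 fold change of 0.52 (SE 0.0944, adjusted p = 0.00159, 95% interval of the fold 1.25 to 1.66). Without shControl 3 the log2 fold change was 0.41 (adjusted p = 2.23e-05).

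Fabp5 (10077608 to 10081667), known as the epidermal form and as a carrier of fatty acids to the nuclear receptor PPARδ, was at 120.3, 105 and 113 CPM in shACSL4 and at 119, 123 and 89.8 CPM in shControl. The shACSL4 values lay inside the control range, whose width came from shControl 3. The fold was 1.02 (95% interval 0.851 to 1.21, adjusted p = 0.897), and the log2 fold change turned to -0.10 without shControl 3 and to -0.025 without shACSL4 1, each short of the threshold. Fabp2, Fabp3, Fabp6 and Fabp7 had 2, 6, 7 and 21 counts over all 6 libraries, so Fabp4 and Fabp5 were the members of this family that could be tested.

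Because Fabp4 is a known marker of fat cells, macrophages and endothelium, their listed markers were read beside it. Of 6 adipocyte markers 4 were analysed. Adipoq had 2, 1 and 0 counts in shACSL4 and 2, 2 and 2 counts in shControl. Plin1 went the other way, with 8, 2 and 9 counts in shACSL4 and 0, 0 and 2 in shControl. Retn had 2, 0 and 0 counts in shACSL4 and 0, 0 and 0 in shControl. All except the widely expressed Adipor2 summed to 0.0699 to 0.290 CPM in shACSL4 and 0.0475 to 0.0969 CPM in shControl. The 6 endothelial markers summed to 0.629 to 0.773 CPM in shACSL4 and 0.710 to 1.33 CPM in shControl. Of 6 macrophage markers 4 were analysed, with sums of 9.30 to 9.63 CPM in shACSL4 and 5.92 to 7.60 CPM in shControl. In that list Lyz2 rose 2.98-fold (adjusted p = 9.26e-05), while Ptprc, the pan-leukocyte marker, had 4, 2 and 2 counts in shACSL4 and 2, 0 and 0 in shControl. T cell markers, 4 of 5 analysed, summed to 0.296 to 0.536 CPM in shACSL4 and 0.145 to 0.261 CPM in shControl. The other 2 analysed macrophage markers were Cd68, at 4.68 CPM in shACSL4 and 5.32 CPM in shControl on average (fold 0.880, adjusted p = 0.466), and Csf1r, with 2, 0 and 4 counts in shACSL4 and 4, 2 and 10 in shControl. The macrophage sum was thus higher in shACSL4 through Lyz2. The part of the macrophage and adipocyte markers in the Fabp4 result was not tested. In bulk RNA, a larger number of cells of a type and more RNA per cell cannot be told apart.

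Among acyl-CoA-binding genes, Dbi encodes the small cytosolic acyl-CoA-binding protein, also called diazepam-binding inhibitor (chromosome 1, 120041010 to 120048808). Dbi was at 175, 182 and 153 CPM in shACSL4 and at 172, 154 and 129 CPM in shControl. The groups overlapped, with shControl 3 the lowest library and shControl 1 and 2 among the shACSL4 values. The means were 170.1 ± 15.2 CPM in shACSL4 and 152 ± 21.3 CPM in shControl, a fold of 1.12 (95% interval 0.957 to 1.32, adjusted p = 0.262). The log2 fold change was 0.17 over all libraries and 0.066 without shControl 3.

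Acbd3 encodes a Golgi protein with an acyl-CoA-binding domain that helps to bring a phosphatidylinositol kinase to Golgi membranes (chromosome 1, 180553608 to 180581769). Acbd3 was at 129, 126 and 126 CPM in shACSL4 and at 159, 167 and 152 CPM in shControl. Every shACSL4 library lay below every control, and the shACSL4 values were within a few CPM of each other. The means were 127 ± 1.47 CPM in shACSL4 and 159 ± 7.66 CPM in shControl, a log2 fold change of -0.33 (SE 0.0537, adjusted p = 6.46e-04, 95% interval of the fold 0.735 to 0.864). Of the acyl-CoA-binding family 7 of 8 listed genes were tested: Acbd3 fell, 0 rose by edgeR (0 at unadjusted p under 0.05, and 0 by DESeq2 and limma-voom), and 6 did not pass, where 29.1% of all tested genes changed and 13.6% fell. The median log2 fold change over these 7 genes was 0.047.

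shControl 3 was the lowest library for Slc27a4, Fabp4, Fabp5 and Dbi, though for Slc27a4 only narrowly (30.8 CPM against 32.3 and 31.7 CPM in shControl 1 and 2). Mitochondrial transcripts held 4.93%, 6.31% and 5.48% of counts in shACSL4 and 3.98%, 3.79% and 5.85% in shControl 1 to 3. By this share shControl 3 stood apart from the other controls. The part of that difference in these results was not tested, and the calls of Slc27a4 and Fabp4 held without that library.

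The thioesterase genes did not pass the test. Acot7 encodes a cytosolic enzyme with activity on long-chain esters including arachidonoyl-CoA (chromosome 4, 152262591 to 152356312). It stood at 117, 116 and 119 CPM in shACSL4 and at 112, 111 and 122 CPM in shControl. The shACSL4 values lay within the control range, and the fold was 1.02 (95% interval 0.941 to 1.11, adjusted p = 0.713). Acot9 encodes a mitochondrial thioesterase (chromosome X, 154045439 to 154080650). It was at 115, 111 and 102 CPM in shACSL4 and at 127, 133 and 114 CPM in shControl.

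For Acot9 the groups overlapped by a single value: shACSL4 1 lay just above shControl 3. The means were 109 ± 6.95 CPM in shACSL4 and 125 ± 9.53 CPM in shControl, a log2 fold change of -0.19 (SE 0.0679) at an adjusted p = 0.0520, just outside the threshold. DESeq2 placed it just inside (adjusted p = 0.0499), and edgeR without shControl 3 gave -0.25 (adjusted p = 0.00175), while without shACSL4 3 it was -0.14 (adjusted p = 0.223). In the authors' deposited table the adjusted p of Acot9 was 0.0531. That table gave Slc27a4 0.47, Fabp4 0.52 and Acbd3 -0.33 as log2 fold changes, with adjusted p of 4.11e-07, 1.70e-06 and 2.60e-06. The authors' own label for regulated genes was nevertheless false for Slc27a4, Fabp4, Acbd3, Acot9 and Acsl4, by a rule not given here.

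**Figure D2:**
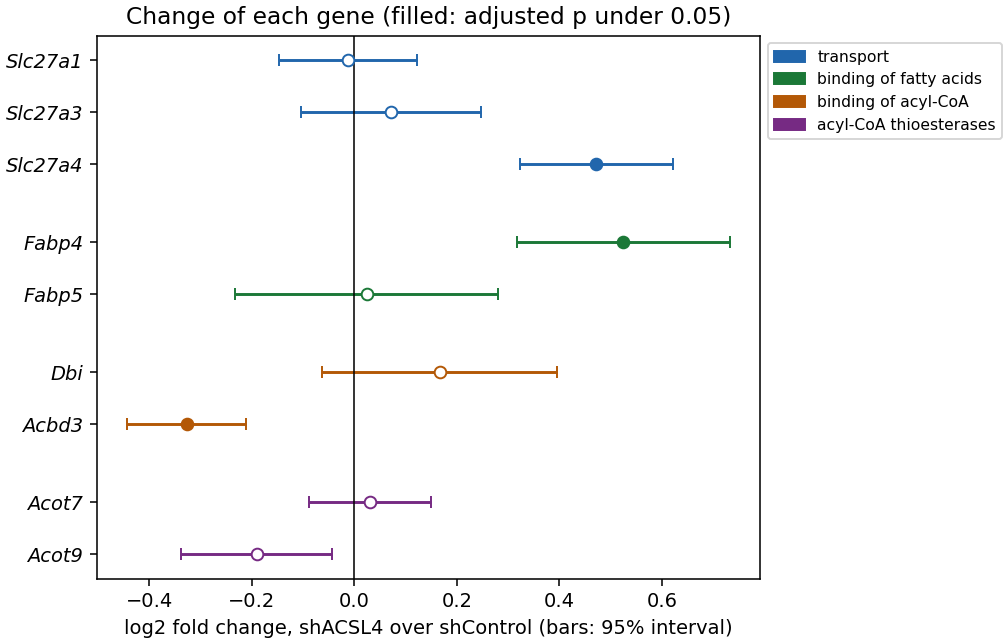
Log2 fold change of shACSL4 over shControl from edgeR for each gene, coloured by role, with the 95% interval as a bar and filled points for adjusted p under 0.05. Slc27a4 at 0.47, Fabp4 at 0.52 and Acbd3 at -0.33 are filled, and the interval of Acot9 ends below 0 although its adjusted p of 0.0520 misses the threshold.

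Genes of the same family were also set against each other as ratios inside each library, which do not depend on how libraries are scaled. These ratios use the same counts as the fold changes above, so they restate those differences and add no separate support. The log2 count ratio of Slc27a4 to Slc27a1 was -1.59, -1.59 and -1.71 in shACSL4 and -2.11, -2.18 and -2.06 in shControl. The groups did not overlap, and the mean was 0.48 higher in shACSL4. For Slc27a4 to Slc27a3 it was 0.24, 0.42 and 0.51 in shACSL4 and -0.020, -0.045 and 0.025 in shControl, 0.40 higher in shACSL4 and again without overlap.

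The log2 count ratio of Fabp4 to Fabp5 was -0.74, -0.61 and -0.82 in shACSL4 and -1.22, -1.26 and -1.18 in shControl, again without overlap and 0.50 higher in shACSL4. The control ratios were close together although the CPM of both genes was lowest in shControl 3. For Acbd3 to Dbi the ratio was -0.45, -0.53 and -0.27 in shACSL4 and -0.11, 0.12 and 0.23 in shControl, lower by 0.50 on average (-0.50) and without overlap. For Acot9 to Acot7 it was -0.014, -0.069 and -0.23 in shACSL4 and 0.18, 0.26 and -0.091 in shControl, with overlapping groups and a difference of -0.22. A two-sided exact permutation test of 3 against 3 libraries cannot go below 0.1, and it gave p = 0.1 for the first 4 ratios and p = 0.3 for Acot9 to Acot7 (0.125 and 0.3 after Benjamini-Hochberg adjustment over 5 ratios). This test therefore could not pass 0.05 for any of these ratios. How often ratios of other gene pairs separate the groups was not computed, and 42.8% of single tested genes did so.

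**Figure D3:**
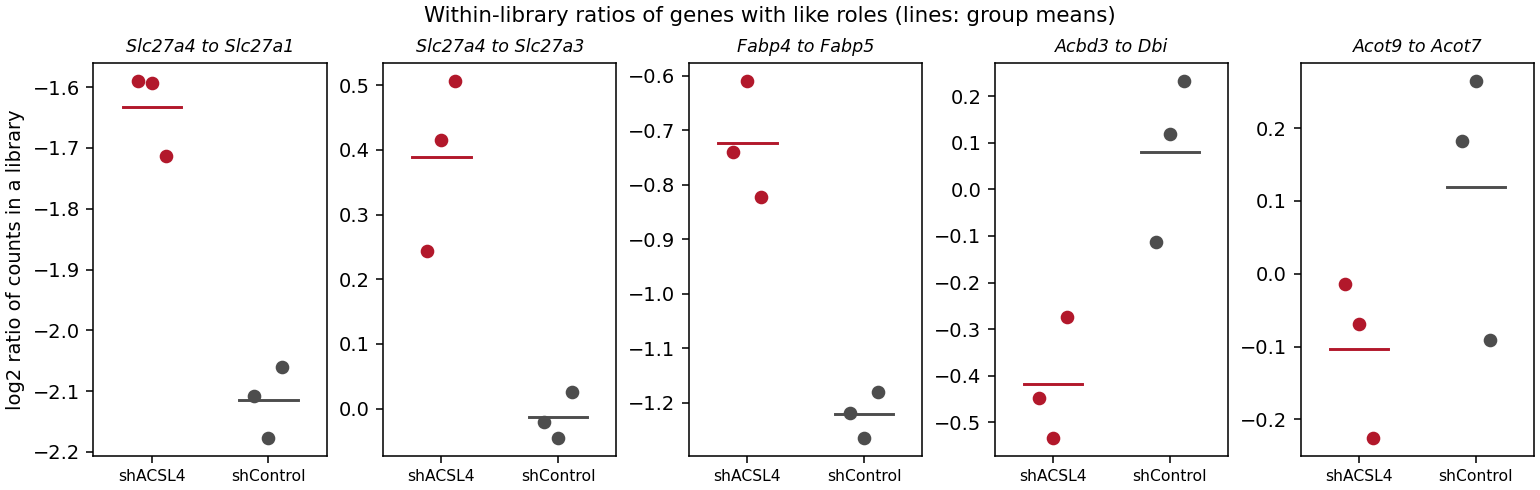
Log2 ratio of counts of 2 genes of the same family within each library, with lines at the group means. The shACSL4 points stand apart from the shControl points in the first 4 panels, while Acot9 to Acot7 overlaps, with -0.091 in shControl 3 below 2 of the shACSL4 values.

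Levels of different genes can be compared only per length, and the order then depended on the length used. In the deposited FPKM (fragment counts scaled by depth and gene length) Dbi was highest in shACSL4, at 120.0 ± 10.6, followed by Acot7 at 55.4 ± 0.746 and Acot9 at 48.3 ± 3.13. Fabp5 followed at 31.7 ± 2.32, Slc27a1 at 23.4 ± 1.35, Acbd3 at 18.8 ± 0.287, Fabp4 at 15.2 ± 0.941 and Slc27a3 at 13.1 ± 1.24. Slc27a4, the transporter that rose, was the lowest of the 9 at 9.96 ± 0.604 FPKM in shACSL4, against 7.13 ± 0.255 FPKM in shControl.

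In shControl the FPKM order was the same at both ends, with Dbi at 106 ± 16.2. Acot9 at 54.7 ± 4.73 and Acot7 at 53.8 ± 2.20 did not differ beyond their spread there, nor did Slc27a1 at 23.4 ± 1.53 and Acbd3 at 23.4 ± 1.32. Fabp5 was at 31.0 ± 5.43, Slc27a3 at 12.4 ± 0.688 and Fabp4 at 10.5 ± 1.61. Between Slc27a3 and Fabp4 the shACSL4 values of 11.7 to 13.9 and 14.3 to 16.2 FPKM did not overlap, and in shControl 8.67 to 11.5 FPKM for Fabp4 lay below 11.6 to 12.8 FPKM for Slc27a3.

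The length behind the FPKM can be worked out from the counts. For Fabp4 it was 4489 bases, which is the whole span of the gene, whereas its coding transcript in GENCODE M21 has 896 bases and a transcript with a retained intron 4231 bases. It was 3567 bases for Fabp5 against a coding transcript of 987, and 1422 for Dbi against 569. For Slc27a4 it was 4412 against 4054 bases. Per kilobase of the longest coding transcript, Fabp4 was at 76.1 ± 4.57 CPM per kilobase in shACSL4 and 52.9 ± 7.49 in shControl. Slc27a4 was at 10.8 ± 0.696 CPM per kilobase in shACSL4 and 7.79 ± 0.179 in shControl. On this scale Fabp4 ranked 4 of 9 in shACSL4 and 5 of 9 in shControl, against ranks 7 and 8 by FPKM. Fabp5 moved up to rank 2 in each group, while Dbi stayed at rank 1 and Slc27a4 at rank 9. Any counted reads from outside the coding transcript would raise the CPM per kilobase, and their share was not tested. Fold changes between the groups do not depend on the length used.

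**Figure D4:**
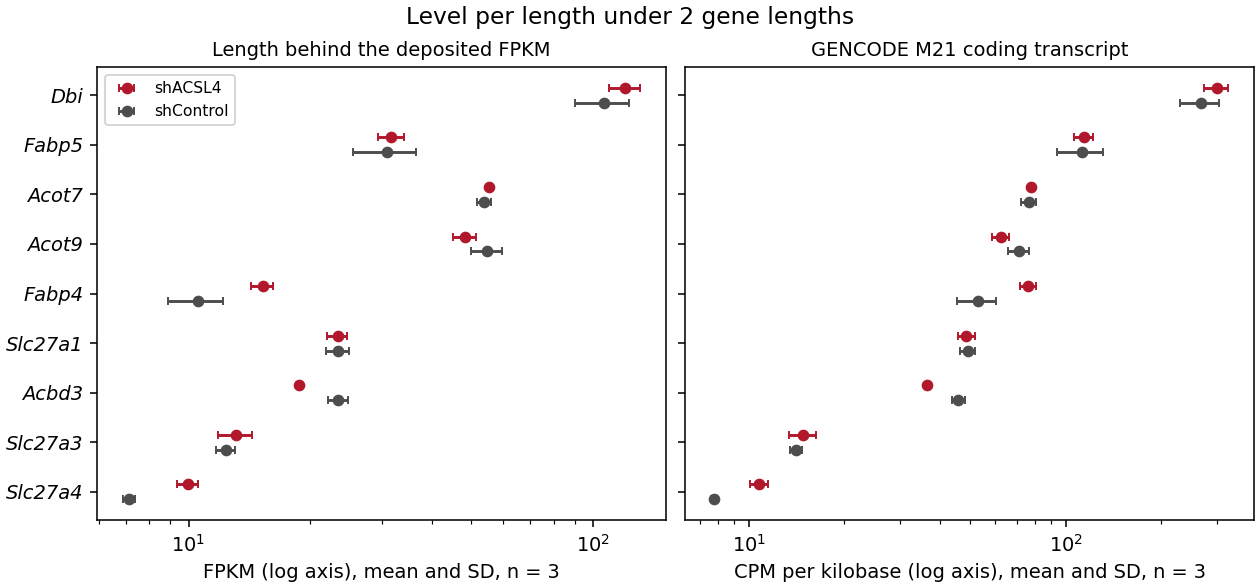
Mean and SD of 3 libraries per group for each gene, on log axes, in the deposited FPKM (left) and in CPM per kilobase of the longest GENCODE M21 coding transcript (right). Dbi is highest and Slc27a4 lowest in each panel, and Fabp4 moves from 15.2 FPKM, near the low end, to 76.1 CPM per kilobase, near Acot7, in shACSL4.

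The wider families were read from lists of their known genes. In the acyl-CoA thioesterase family 12 of 18 listed genes were analysed and 9 tested, of which 2 rose and 0 fell by edgeR (1 fell at unadjusted p under 0.05 and 1 by DESeq2, Acot9 in each case, and 0 by limma-voom). Across all tested genes 15.4% rose and 13.6% fell, so these counts are near the background. Them6, a member of the thioesterase superfamily, was at 45.7, 43.0 and 48.6 CPM in shACSL4 and at 31.9, 36.6 and 35.7 CPM in shControl, with no overlap. Its log2 fold change was 0.40 (SE 0.0744, adjusted p = 0.00157). Acot11, whose protein is known from brown fat, was scarce, with 31, 62 and 33 counts in shACSL4 and 15, 14 and 4 counts in shControl. It rose 3.60-fold (95% interval 1.71 to 7.57, adjusted p = 0.0140), and the call ended without shACSL4 2 (adjusted p = 0.0919). Acot13, named after its values were seen, had non-overlapping groups at a fold of 1.17 and an adjusted p of 0.0516 in edgeR, and passed with DESeq2 and limma-voom. The median log2 fold change of the 9 genes was -0.032.

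Of 9 protein thioesterases, which remove fatty acids from proteins, 1 rose and 0 fell by edgeR, where 29.1% of all tested genes changed. At unadjusted p under 0.05, by DESeq2 and by limma-voom, 2 were higher (Ppt1 and Lyplal1) and 0 lower. The gene that rose was Ppt1, the lysosomal palmitoyl-protein thioesterase, at 64.6, 66.0 and 68.9 CPM in shACSL4 and at 55.7, 55.8 and 63.3 CPM in shControl, a fold of 1.14 (adjusted p = 0.0461). The median log2 fold change of the 9 genes was 0.012. The call of Ppt1 ended without shACSL4 1, 2 or 3 (adjusted p = 0.0809, 0.107 and 0.162) and without shControl 1 or 2 (0.173 and 0.159).

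Of 8 other genes of uptake and carriage 6 were tested, of which 2 rose and 2 fell, where 15.4% of all tested genes rose and 13.6% fell. Got2, mitochondrial aspartate aminotransferase, which has also been described as a fatty acid-binding protein of the cell surface, was at 428, 420.2 and 429 CPM in shACSL4 and at 307, 326 and 339 CPM in shControl (log2 fold change 0.39, adjusted p = 1.66e-04). Vldlr, a receptor for triglyceride-rich lipoproteins, was at 54.7, 50.1 and 44.4 CPM in shACSL4 and at 35.8, 39.8 and 31.5 CPM in shControl (0.48, adjusted p = 0.00280). The caveolin genes Cav1 and Cav2, which shape caveolae, fell: Cav1 to 500.1 ± 4.79 CPM in shACSL4, against 593 ± 39.1 CPM in shControl (-0.24, adjusted p = 0.00661), and Cav2 to 167 ± 7.60 CPM in shACSL4, against 198 ± 10.1 CPM in shControl (-0.24, adjusted p = 0.00789). The call of Cav2 ended without shACSL4 3 (adjusted p = 0.0519). For each of these 4 genes the shACSL4 and shControl libraries did not overlap, as for 42.8% of all tested genes. The median log2 fold change of the 6 tested genes was -0.20.

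Cd36, the best-known fatty acid translocase, had 1, 4 and 4 counts in shACSL4 and 4, 3 and 2 in shControl, so its transcript was at or near the floor of these libraries. Of the nuclear and surface receptors for fatty acids 3 of 8 listed were tested, Ppara, Ppard and Rxra, and 0 passed by edgeR (0 at unadjusted p under 0.05, and 0 by DESeq2 and limma-voom). Pparg, the nuclear receptor that drives Fabp4 in fat cells, had 2, 0 and 0 counts in shACSL4 and 1, 1 and 0 in shControl. Ppard, the partner receptor of Fabp5, was at 40.9 ± 4.25 CPM in shACSL4 and 44.9 ± 3.38 CPM in shControl (adjusted p = 0.249).

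**Figure D5:**
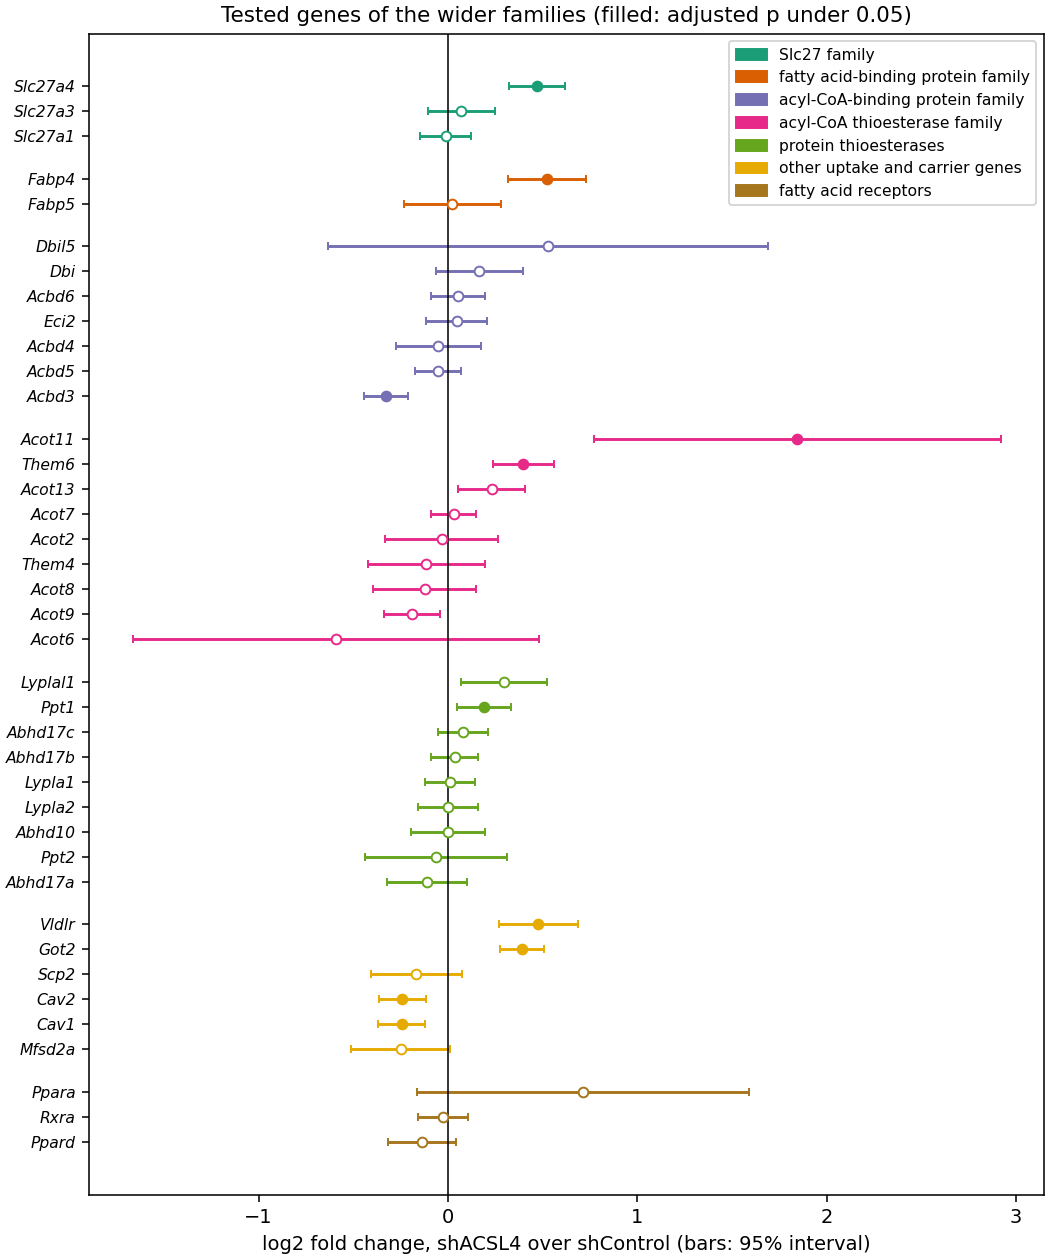
Log2 fold change of shACSL4 over shControl with 95% intervals for each tested gene of the wider families, coloured by family and filled where adjusted p is under 0.05. In each of the Slc27 and fatty acid-binding families a single gene is filled, Slc27a4 and Fabp4, and Acot11, with few counts, has a wide bar.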

How the data were processed

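Per the file headers, the authors gave raw counts and FPKM for each gene in 6 libraries, with a gene length of unstated definition behind the FPKM. The log2 fold changes and p-values deposited beside them are the authors' own. Per the submitters' processing notes, CASAVA, HISAT2 and DESeq2 were used with GRCm39; the counting program, annotation, versions and strandedness are not given in the sources used here. Reads from overlapping antisense genes therefore cannot be told apart. Libraries held 40911698 to 47127672 counts, and 3 counts, the limit that a count of 0 allows, equal 0.0637 to 0.0733 CPM (counting error only).

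Counts were tested over the whole table in R 4.3.3 with edgeR 4.0.16 (robust quasi-likelihood, two-sided, group as the only term, TMM scaling, minimum count 10 and minimum total 15). Benjamini-Hochberg adjustment ran over all 14289 tested genes. Standard errors came from each log2 fold change and its F statistic. Ratios used counts plus 0.5. DESeq2 1.42.0, limma-voom (limma 3.58.1), other scalings and filters, the replicate number as a block and each library left out were alternatives, and the workflow was tested on simulated data. No 2 libraries had identical counts.

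GENCODE M21 (GRCm38) gave transcript lengths and sequences, matched by gene identifier for all 9 genes, and coding sequences were aligned with Biopython 1.88 (Python 3.11.15). Listed non-members past the threshold were named, with markers and relatives that hold counts; other genes were named after their values were seen. Members and lists were chosen with earlier results of these data known.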

Additional observations from a re-analysis of the deposited data

How the results depend on the processing

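The calls of Slc27a4, Fabp4 and Acbd3 held under all 7 other settings and with each library left out. Their log2 fold changes then ranged from 0.42 to 0.50, from 0.41 to 0.58 and from -0.36 to -0.29. Acot9 passed the threshold with DESeq2 (-0.19), no filter (-0.19, adjusted p = 0.0151) and the replicate number as a block (-0.19, adjusted p = 0.00643), and spanned -0.25 to -0.14 with 1 library left out. Slc27a1 was at 0.0015 with the stricter filter (at least 1 CPM in 3 libraries) and spanned -0.053 to 0.037 with 1 library left out, and Fabp5 spanned -0.10 to 0.11. With 1 library left out, 1 to 2 of the 9 genes were lower. Of all tested genes 1252 to 2659 were then lower, against 1950 with all libraries, and 1666 to 2818 higher, against 2205. The fewest lower genes came without shACSL4 3, and the most genes in each direction without shControl 3. In the acyl-CoA thioesterase family 1 to 3 were higher and 0 to 1 lower, in the protein thioesterases 0 to 1 were higher, and among other uptake genes 1 to 3 were lower. Of the 9 genes 2 were lower with DESeq2, no filter or the block. In the acyl-CoA thioesterase family 1 was lower with DESeq2 or the block and 2 with no filter (Acot9 and Baat). Of the protein thioesterases 2 were higher (Ppt1 and Lyplal1) with DESeq2's size factors, DESeq2, limma-voom, no filter, the stricter filter or the block. The causes were not tested.

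The labels give replicate numbers only, and whether these pair the libraries was not tested. Deviations of same-numbered libraries correlated at 0.115, 0.0634 and 0.201, and those of differently numbered libraries at -0.204 to 0.13. With the replicate block 2616 genes were higher and 2547 lower, against 2205 and 1950 without it. Dbi then passed (0.17, adjusted p = 0.0188), and 1 acyl-CoA-binding gene was higher. The ratios between genes kept their direction with no pseudocount, with FPKM and with each library left out. A group of 3 libraries limits every interval here.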
